A study of Homo sapiens with 9 samples.

Results

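The genes described here are 40 ligands and receptors of axon guidance: 9 semaphorins, 9 plexins and neuropilins, 10 Eph receptors and ephrins, 7 genes of the netrin group with DCC and the UNC5 receptors, and 5 SLIT and ROBO genes. A region of open chromatin was assigned to a gene when its centre lay within the gene's GRCh38 span or up to 20 kb beyond either end. This gave 820 of the 148797 regions in the count table, and no region belonged to 2 of the genes. Of these, 36 regions lay within 1 kb of a gene end and 784 lay farther away, with 720 of all 820 inside the gene spans. The low-count filter kept 685 of the 820, and 135 were not tested.

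The assay was ATAC-seq, which reads open DNA from where the transposase Tn5 cuts and tags it, in SK-N-BE(2)c, an established human neuroblastoma cell line. Each of 3 groups had 3 libraries, all of cells lipofected with 100 nM of an antisense oligonucleotide (ASO) and collected 48 h later. ASO2 and ASO10 target NESPR, a long non-coding RNA, while NCA served as negative control. All groups carry lipofection and an oligonucleotide, no untransfected group was analysed here, and the cells are a single line. NESPR knockdown was not measured in these data. The labels do not say whether the libraries of a group came from separate cultures, so p-values measure the spread between these libraries, which may be technical. Counts per library totalled 7293565 to 10948569. Every group is a bulk sample: more cells with an open region and more opening per cell cannot be told apart.

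The labelled cell type was checked on markers. Of 10 adrenergic neuroblastoma markers, 8 had a region at a gene end, and TH and MYCN had none. Only regions centred within 1 kb of an outer end of the gene span count here. A marker with none may still have an open start farther inside. The summed level of these markers was 149 CPM (counts scaled to a common library total) in NCA, 141 in ASO2 and 148 in ASO10. Of 8 mesenchymal markers, 4 had such a region (summed CPM 70.6, 68.7 and 71.7), and PRRX1, FOSL2, CD44 and VIM had none. In NCA the 4 were SNAI2 at 28.2 CPM, TWIST1 at 27.9, YAP1 at 10.9 and FOSL1 at 3.56. SNAI2 and TWIST1 were thus as high as most adrenergic markers, of which PHOX2A, ISL1 and HAND2 were highest at 36.9, 27.6 and 23.7. Of the lymphoid or myeloid markers, PTPRC, CD3E and LYZ had no such region and CD14 had one, at 6.87 CPM in NCA, 7.84 in ASO2 and 7.16 in ASO10. Endothelial cells had 2 of 4 at a summed 3.98, 5.84 and 5.75 CPM, and epithelial cells 2 of 5, KRT8 and KRT18, which share 1 region at 1.23, 1.79 and 1.33 CPM. Hepatocytes had APOA1 but not ALB, at 8.31, 7.31 and 6.81 CPM. Their part in the results below was not tested.

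Growing axons steer by secreted and membrane-bound cues that their receptors read as attraction or repulsion. Secreted class 3 semaphorins bind neuropilins, which pair with plexins to signal, whereas the transmembrane semaphorins bind plexins directly. Ephrins are cell-bound ligands of the Eph receptor tyrosine kinases and signal in both directions at cell contacts. Netrins attract through DCC and repel through UNC5 receptors, and SLIT proteins repel through ROBO receptors. The same cues guide neural crest cells, the lineage from which neuroblastoma arises.

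Promoter sequence bears on the few gene-start regions that differed between groups. The 250 bases before the start are shown for EPHB3, whose start region differed between ASO10 and NCA, for a second start of SEMA3E, whose region differed between ASO2 and ASO10, and for EFNB2. EFNB2 had the highest start region by its mean over all 9 libraries (48.9 CPM, with EPHB3 next at 44.3, although EPHB3 was higher with ASO10, at 50.7 against 49.4), showed little difference there, and was added after its values were seen. The sequences are from RefSeq (GRCh38.p14), 5′ to 3′ on the gene's strand, at chr3:184561535-184561784 (plus strand), chr7:83641432-83641681 (minus strand) and chr13:106535663-106535912 (minus strand). Capitals mark CAGCTG, an E-box, in EPHB3 and AGATAA, the GATA core, on either strand in SEMA3E.
EPHB3: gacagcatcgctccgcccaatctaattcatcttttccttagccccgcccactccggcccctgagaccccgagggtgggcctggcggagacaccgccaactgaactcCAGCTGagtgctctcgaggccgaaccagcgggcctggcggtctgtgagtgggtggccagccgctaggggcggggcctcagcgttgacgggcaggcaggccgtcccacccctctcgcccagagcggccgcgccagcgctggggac
SEMA3E: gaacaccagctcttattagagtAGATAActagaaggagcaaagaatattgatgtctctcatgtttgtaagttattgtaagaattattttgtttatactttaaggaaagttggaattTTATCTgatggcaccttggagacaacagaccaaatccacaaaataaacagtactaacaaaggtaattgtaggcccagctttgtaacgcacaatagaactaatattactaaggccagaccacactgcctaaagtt
EFNB2: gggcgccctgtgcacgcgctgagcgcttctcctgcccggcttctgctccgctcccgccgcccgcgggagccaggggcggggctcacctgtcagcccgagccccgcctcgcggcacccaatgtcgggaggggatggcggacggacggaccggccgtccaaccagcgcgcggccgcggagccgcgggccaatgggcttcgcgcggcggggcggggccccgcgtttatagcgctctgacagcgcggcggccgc
The EPHB3 stretch is 70.0% G and C with 21 CpG, and the EFNB2 stretch is 78.4% G and C with 40 CpG. The SEMA3E stretch is 34.8% G and C with 1 CpG, and the region that differed overlaps it by 62 bases. The EFNB2 stretch held none of the 5 motifs searched. RefSeq promoter entries, each 250 bases before and 50 after a start, existed for 33 of the 40 genes, 49 entries in all. Their median was 66.7% G and C and 24 CpG, beside 58.7% and 14 over all 35116 entries. On both strands, CAGCTG was found in 10.2% of the members' entries and 17.9% of all, AGATAA in 10.2% and 10.3%, and CACGTG, another E-box, in 6.12% and 7.26%. TGANTCA, the AP-1 motif, was found in 2.04% and 7.71%, and a paired homeodomain motif in 0% and 0.365%. None of these motifs can be counted as a bound site from the letters alone.

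ASO2 was accompanied by higher accessibility inside a small set of these genes, above all the SLIT receptors ROBO1 and ROBO2 and the secreted semaphorins SEMA3A, SEMA3C, SEMA3D and SEMA3E. Of the 685 tested regions, 74 (10.8%) were higher than in NCA and 0 were lower at an adjusted p under 0.05 (edgeR quasi-likelihood test, Benjamini-Hochberg over all tested regions). Over all 119417 tested regions 5.6% passed in either direction, 4.79% higher and 0.808% lower. At an unadjusted p under 0.05, 132 of the members' regions were higher and 29 lower, and DESeq2 called 53 higher and 0 lower. Scaling by total counts gave 71 higher and 3 lower, and abundance-dependent loess offsets gave 66 and 5. Without ASO2 replicate 2 the count was 46. Shares over all tested regions were computed for the main fit only. The counts at the unadjusted p and under alternatives, here and below, therefore have no such share beside them.

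With ASO10, 7 of the regions were higher and 3 lower than in NCA (1.46%), beside 1.09% of all tested regions in either direction, 0.876% higher and 0.21% lower. DESeq2 split its calls 8 to 1. The count was 4 without ASO10 replicate 3 and 6 without NCA replicate 2. ASO2 and ASO10 differed from each other at 35 of the 685 regions (5.11%, beside 3.23% of all), 31 higher and 4 lower with ASO2, where 2.54% of all were higher and 0.682% lower. That count was 19 without ASO10 replicate 1, ASO2 replicate 1 or ASO2 replicate 2, 20 without ASO10 replicate 3 and 22 without ASO10 replicate 2. The comparisons with NCA share the same NCA libraries, so their values are given side by side and not as agreement.

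By family, the count with ASO2 was 42 of 247 tested regions in the SLIT and ROBO genes, 21 of 117 in the semaphorins, 4 of 100 in the Ephs and ephrins, 4 of 76 in the netrin group and 3 of 145 in the plexins and neuropilins. These are 17.0%, 17.9%, 4.0%, 5.26% and 2.07%, beside 5.6% of all tested regions in either direction and 4.79% higher. All of these calls were higher. Against the 4.79%, the Ephs and ephrins and the plexins and neuropilins lay below, and the netrin group slightly above. Family medians of the log2 fold change were 0.20, 0.22, 0.13, 0.10 and -0.03 in the same order, beside -0.02 over all tested regions. With ASO10 the family counts were 5, 3, 1, 0 and 1 (2.02%, 2.56%, 1.0%, 0% and 0.69%, beside 1.09% of all), and the medians 0.06, 0.05, 0.02, -0.04 and -0.01, beside -0.01 over all. ROBO2 held 24 of the 74 regions higher with ASO2 and ROBO1 held 14, together 51.4%. SEMA3A held 7 of its 24 tested regions (29.2%), SEMA3C 4 of 11 (36.4%), SEMA3D 4 of 7 (57.1%) and SEMA3E 4 of 16 (25.0%). SLIT3 held 4 of 74 (5.41%), beside 5.6% of all tested regions in either direction and 4.79% higher. SLIT1 and SLIT2 held 0.

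**Figure D1:**
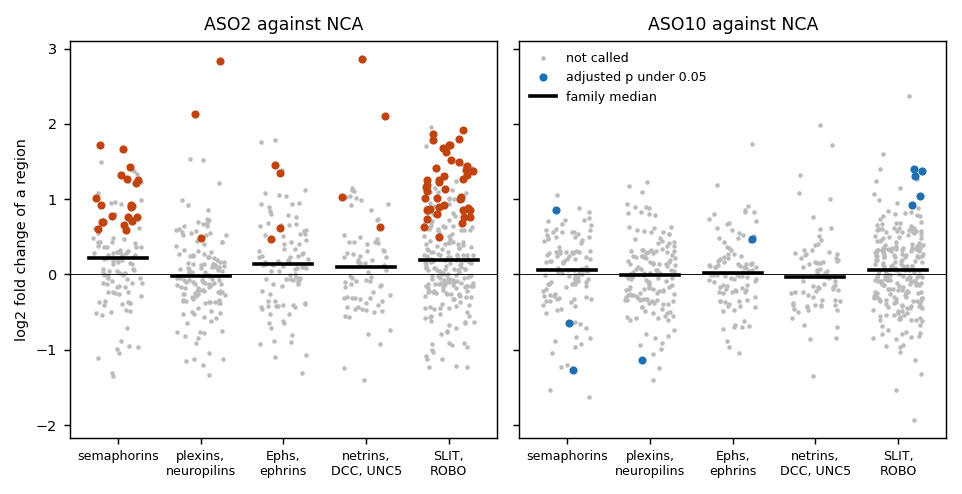
Each point is a tested region, placed by family on the horizontal axis and by its log2 fold change against NCA on the vertical axis, with coloured points past an adjusted p of 0.05 and a black line at the family median. With ASO2 the coloured points are all above 0 and most belong to the SLIT and ROBO genes (42) and the semaphorins (21), whereas ASO10 has 7 above and 3 below.

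Most calls lay away from gene ends. At gene ends, 1 of 35 tested regions passed with ASO2 (SEMA3A), 1 with ASO10 (EPHB3) and 1 between the ASOs (SEMA3A), where 1.54%, 2.14% and 3.31% of all tested gene-end regions passed. Away from gene ends 73 of 650 passed with ASO2 (11.2%), 9 with ASO10 (1.38%) and 34 between the ASOs (5.23%), against a background of 6.12%, 0.951% and 3.22%. The 2 sets differ in definition. A members' region was away when far from its own gene's ends, while the background left out regions at the ends of any protein-coding gene. The median log2 fold change of the members' gene-end regions was 0.07 with ASO2, 0.15 with ASO10 and -0.11 between ASO2 and ASO10, beside -0.05, 0.09 and -0.15 over all gene-end regions. Away from gene ends the medians were 0.14, 0.01 and 0.14, beside -0.01, -0.03 and 0.03. The sign turned for the gene-end median with ASO2 without ASO2 replicate 2 (-0.017), and for the ASO10 median away from gene ends with total counts (-0.018) and without ASO10 replicate 1 (-0.011) or ASO2 replicate 2 (just under 0). Of the 36 gene-end regions, 26 lay at a start, 5 at a stop and 5 at genes whose strand was not in the promoter table, and 10 of the 40 genes had none. Gene ends are the outer ends of a span, so a region at a start farther inside counts as away. Examples are the regions at the second start of SEMA3E and at a start of EPHA4.

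The regions that rose with ASO2 lay inside a gene span in 73 of 74 cases, as did 529 of the 611 regions not called. Their median level in NCA was 4.42 CPM and their median width 814 bases, beside 2.86 CPM and 476 bases for those not called. Their log2 fold changes ran from 0.47 to 2.87 with a median of 1.07. In 72 of the 74, all 3 ASO2 libraries lay above all 3 NCA libraries. Over all 685 regions, 151 did so (22.0%, beside 11.9% of all tested regions) and 43 lay wholly below (6.28%, beside 8.57%). With ASO10, 75 lay above (10.9%, beside 8.51%) and 38 below (5.55%, beside 7.15%), and all 10 called regions were among them. Between the ASOs 121 were wholly higher with ASO2 (17.7%, beside 11.0%) and 44 wholly lower (6.42%, beside 8.31%), with 34 of the 35 called regions among them.

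Counts were also summed over the regions of each gene and tested over all 18793 protein-coding genes. These values are given as CPM of the counts summed over genes, a level that grows with a gene's length and is not compared between genes. A sum over more counts has less error, and no share among long genes alone was computed for the sums. With ASO2, 10 of the 40 genes rose and 0 fell (25.0%, beside 7.31% of all genes, 5.42% higher and 1.89% lower): ROBO1, ROBO2, SEMA3A, SEMA3C, SEMA3D, SEMA3E, EPHA5, EFNA5, DCC and UNC5C. With ASO10, ROBO2, SEMA3C and SEMA3D rose and SEMA6A fell (10.0%, beside 8.36% of all genes, 5.15% higher and 3.22% lower). In the direct comparison 11 genes were higher with ASO2 than with ASO10 and 0 were lower (27.5%, beside 9.66% of all genes, 6.41% higher and 3.25% lower). The median log2 fold change over the 40 genes was 0.11 with ASO2, 0.00 with ASO10 and 0.14 between them, beside -0.01 for all genes in each comparison.

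**Figure D2:**
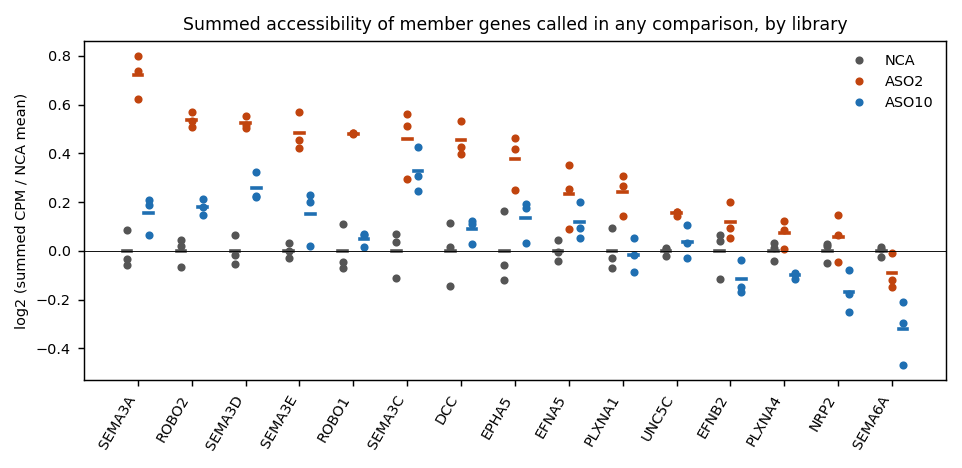
Each point is a library, plotted as the log2 ratio of a gene's summed CPM to its NCA mean for the member genes that passed in any comparison, with short lines at group means. The ASO2 points of SEMA3A, ROBO2 and ROBO1 stand above all their NCA and ASO10 points, and the ASO10 points of SEMA6A lie below its NCA points.

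Of the 40 genes, the SLIT receptor ROBO2 had the smallest p with ASO2. Its summed level was 415, 391 and 421 CPM in NCA, 582, 591 and 607 in ASO2 and 474, 454 and 463 in ASO10. The 3 groups did not overlap, with ASO10 between NCA and ASO2. The log2 fold change was 0.54 ± 0.04 (SE; 1.45-fold) with ASO2, at an edgeR adjusted p of 5.5e-26, and 0.18 ± 0.04 with ASO10, at an edgeR adjusted p of 0.00088. Between ASO2 and ASO10 it was 0.36 ± 0.04 (edgeR adjusted p 2e-13). ROBO2 spans chr3:75906675-77649964, and 24 of its 87 tested regions (27.6%) rose with ASO2 and 3 with ASO10.

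ROBO1, the neighbouring receptor gene at chr3:78597239-79767998, rose with ASO2 without passing with ASO10. It stood at 229, 226 and 256 CPM in NCA, 331, 330 and 331 in ASO2 and 240, 249 and 248 in ASO10. All ASO2 libraries were above all others, while the ASO10 libraries lay within the NCA range. The log2 fold change was 0.48 ± 0.05 with ASO2 (edgeR adjusted p 1.6e-17) and 0.05 ± 0.05 with ASO10 (edgeR adjusted p 0.57), and 0.43 ± 0.05 between them (edgeR adjusted p 3e-14).

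**Figure D3:**
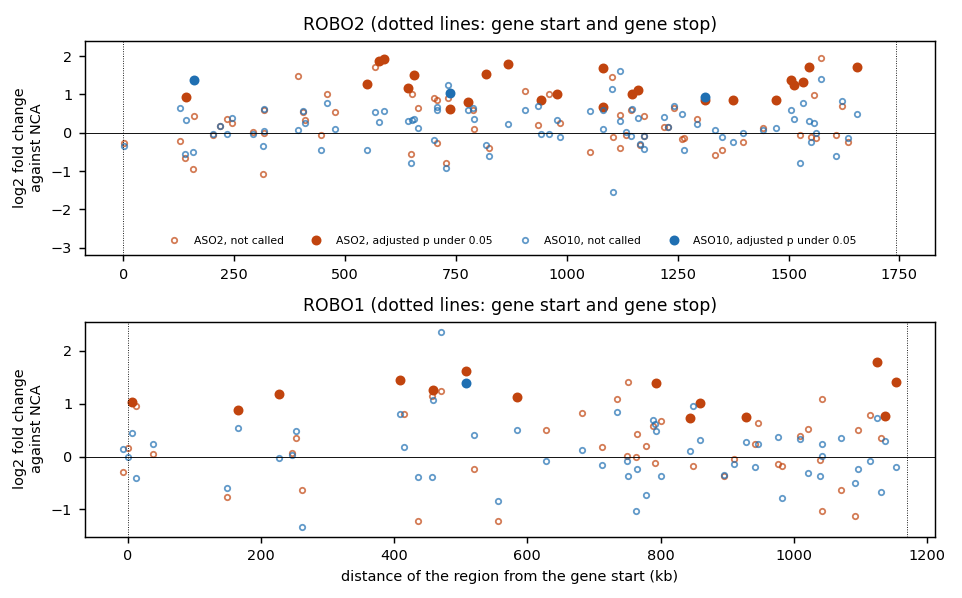
Each point is a tested region of ROBO2 (upper) or ROBO1 (lower), placed by its distance from the gene start in kb, with its log2 fold change against NCA on the vertical axis and filled points past an adjusted p of 0.05. Filled ASO2 points (24 in ROBO2, 14 in ROBO1) are spread along both genes and all lie above 0, beside open points on both sides of 0.

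Single ROBO regions showed patterns that the sums hide. At chr3:76561044-76562102, inside ROBO2, the levels were 6.31, 5.30 and 6.81 CPM in NCA, 16.6, 18.0 and 17.5 in ASO2 and 8.44, 7.05 and 8.07 in ASO10. ASO2 stood well above both other groups (log2 fold change 1.50 ± 0.20, edgeR adjusted p 9.5e-11), and ASO10 did not pass (0.35 ± 0.21, edgeR adjusted p 0.59). At chr3:76724480-76725089 the levels were 2.96, 3.15 and 3.06 CPM in NCA, 8.84, 9.12 and 8.53 in ASO2 and 2.46, 2.05 and 2.86 in ASO10. Here only the ASO2 libraries were high, at 1.84 ± 0.30 above ASO10 (edgeR adjusted p 9.3e-07).

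Other ROBO2 regions had their highest mean with ASO10. At chr3:76065768-76066345 the levels were 4.90, 3.91 and 4.31 CPM in NCA, 4.35, 6.33 and 6.79 in ASO2 and 10.7, 9.79 and 13.7 in ASO10. The ASO10 libraries were above all others, by 1.37 ± 0.24 over NCA (edgeR adjusted p 3.5e-05). The difference from ASO2 of -0.94 ± 0.23 (edgeR adjusted p 0.0037) did not pass without ASO10 replicate 3 or ASO2 replicate 1, where the highest adjusted p was 0.11. At chr3:76643489-76644793 the levels were 12.1, 12.1 and 12.9 CPM in NCA, 19.8, 21.4 and 16.4 in ASO2 and 27.2, 20.6 and 28.8 in ASO10. Both ASO groups were above NCA, by 0.63 ± 0.16 with ASO2 (edgeR adjusted p 0.003, and 0.052 without ASO2 replicate 2) and 1.04 ± 0.16 with ASO10 (edgeR adjusted p 2.3e-07). The ASO groups overlapped there, and the difference of ASO2 from ASO10 did not pass (-0.41 ± 0.15, edgeR adjusted p 0.0995).

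In ROBO1 the region with the clearest difference between the ASOs was chr3:78613244-78614108, near the gene stop. It measured 5.15, 5.42 and 6.58 CPM in NCA, 14.0, 15.9 and 16.1 in ASO2 and 6.45, 4.44 and 4.04 in ASO10. NCA and ASO10 overlapped and ASO2 lay above both, by 1.42 ± 0.21 over NCA (edgeR adjusted p 1.5e-08) and 1.62 ± 0.22 over ASO10 (edgeR adjusted p 3.6e-10).

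The SLIT ligand genes did not pass as sums. SLIT3, with 81 regions, had log2 fold changes of 0.10 ± 0.04 with ASO2 (edgeR adjusted p 0.10) and 0.00 ± 0.04 with ASO10. SLIT2 had 0.20 ± 0.08 with ASO2 (edgeR adjusted p 0.091), and SLIT1 -0.04. Within SLIT3, however, a region at chr5:168897860-168898940 measured 9.28, 5.04 and 6.47 CPM in NCA, 14.7, 18.7 and 17.7 in ASO2 and 16.9, 17.6 and 16.7 in ASO10. Both ASO groups lay above NCA, at 1.31 ± 0.18 (edgeR adjusted p 7e-10) and 1.30 ± 0.18 (edgeR adjusted p 2e-08). A second SLIT3 region, chr5:168822773-168823131, was lower with ASO2 than with ASO10 by 0.70 ± 0.21 on the log2 scale (edgeR adjusted p 0.029). That call was lost with DESeq2 and without ASO10 replicates 1 or 3 or ASO2 replicates 1 or 3 (highest adjusted p 0.30).

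**Figure D4:**
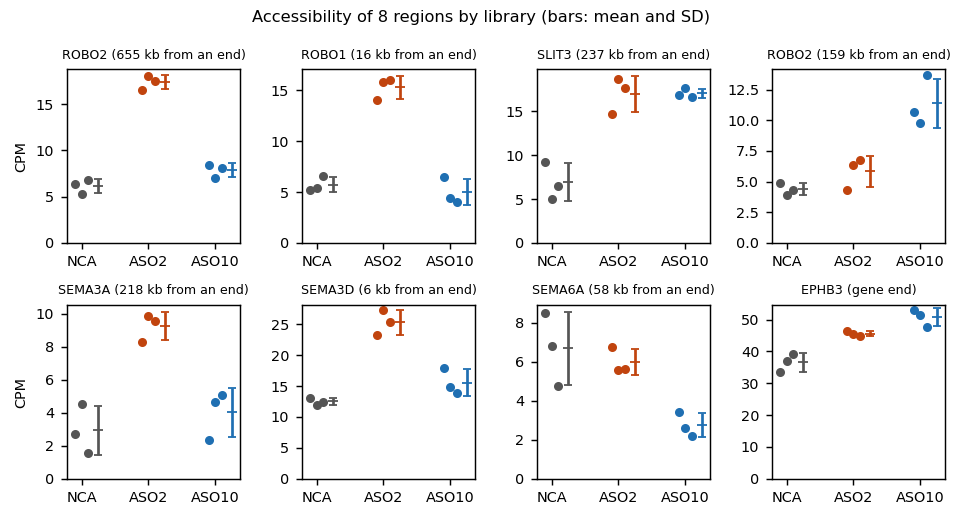
CPM of 8 regions is shown by library (points), with group mean and SD (n = 3) as bars, and each panel title gives the gene and the region's distance from the nearest gene end. The panels separate regions high only with ASO2 (ROBO1, SEMA3A), high with both ASOs (SLIT3), highest with ASO10 (the second ROBO2 panel) and low with ASO10 (SEMA6A).

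Among the semaphorins, the secreted class 3 genes held all but 2 of the 21 regions higher with ASO2. SEMA3A, a repulsive cue that signals through neuropilin 1, had summed levels of 84.7, 76.7 and 78.0 CPM in NCA, 123, 133 and 139 in ASO2 and 83.6, 90.8 and 92.3 in ASO10. NCA and ASO10 overlapped and ASO2 was above both. Its log2 fold change with ASO2 was 0.73 ± 0.07 (1.65-fold, edgeR adjusted p 8.2e-19), with ASO10 0.16 ± 0.07 (edgeR adjusted p 0.15) and between the ASOs 0.57 ± 0.06 (edgeR adjusted p 1.2e-12). SEMA3A was the member whose gene-end region passed with ASO2 and between the ASOs, chr7:84492380-84493255, at 8.25, 7.19 and 5.79 CPM in NCA, 11.1, 15.8 and 12.7 in ASO2 and 7.27, 6.60 and 10.3 in ASO10. There ASO2 was above both groups, by 0.91 ± 0.21 over NCA (edgeR adjusted p 0.0006) and by 0.72 ± 0.20 over ASO10 (edgeR adjusted p 0.017). The second call was lost with DESeq2 and without ASO10 replicates 1 or 2 or ASO2 replicate 2 (highest adjusted p 0.22).

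SEMA3A also had a region inside the gene, chr7:84274304-84275540, that rose from 2.71, 4.54 and 1.59 CPM in NCA to 8.28, 9.87 and 9.54 in ASO2, with 2.35, 4.67 and 5.08 in ASO10. ASO2 did not overlap the others (1.66 ± 0.28, edgeR adjusted p 8.9e-07). The difference from ASO10 of 1.20 ± 0.27 (edgeR adjusted p 0.0011) had an adjusted p of 0.075 without ASO10 replicate 1.

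SEMA3D and SEMA3C rose with both oligonucleotides. SEMA3D stood at 82.3, 80.2 and 87.2 CPM in NCA, 118, 122 and 119 in ASO2 and 104, 97.1 and 97.3 in ASO10. The groups were ordered NCA, ASO10, ASO2 with no overlap, at 0.52 ± 0.07 with ASO2 (edgeR adjusted p 3.1e-11) and 0.26 ± 0.07 with ASO10 (edgeR adjusted p 0.0056, and 0.061 without ASO10 replicate 1). SEMA3C, a ligand of neuropilins and plexins, stood at 75.8, 66.9 and 74.0 CPM in NCA, 88.7, 107 and 103 in ASO2 and 89.4, 85.8 and 97.1 in ASO10. Its ASO groups overlapped each other and both lay above NCA, at 0.47 ± 0.07 (edgeR adjusted p 8e-08) and 0.33 ± 0.07 (edgeR adjusted p 0.00098).

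SEMA3D had its clearest region at chr7:85001140-85002318, near the gene stop, with 13.1, 12.0 and 12.5 CPM in NCA, 23.3, 27.3 and 25.4 in ASO2 and 17.9, 14.9 and 13.8 in ASO10. ASO2 was above both other groups (1.02 ± 0.16 over NCA, edgeR adjusted p 3.1e-08). The SEMA3C region chr7:80906984-80907884 had 15.5, 6.56 and 10.4 CPM in NCA, 15.2, 17.7 and 16.0 in ASO2 and 18.5, 18.2 and 21.9 in ASO10. NCA replicate 1 reached the ASO2 range, and NCA replicate 2 was the lowest library. The ASO10 difference was 0.85 ± 0.17 (edgeR adjusted p 0.00035, and 0.11 without NCA replicate 2). The ASO2 difference was 0.59 ± 0.17 (edgeR adjusted p 0.012) and was lost with DESeq2 and without ASO2 replicate 2 or NCA replicates 2 or 3 (highest adjusted p 0.40).

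SEMA3E, which binds PLXND1 without needing a neuropilin, rose with ASO2 by 0.49 ± 0.08 (edgeR adjusted p 1.3e-07) from 62.7, 64.0 and 65.4 CPM in NCA to 85.8, 87.8 and 95.1 in ASO2. With ASO10 it stood at 73.6, 75.0 and 64.9, with 1 library in the NCA range. The region at its second start, chr7:83641620-83642108, averaged 1.40 CPM in NCA, 2.99 in ASO2 and 0.443 in ASO10, and passed only between the ASOs (2.72 on the log2 scale, edgeR adjusted p 0.0023). It is a weak region, at a mean of 1.61 CPM over all 9 libraries, and this call was not checked under the alternatives. PLXND1 itself did not pass (-0.23 ± 0.09 with ASO2, edgeR adjusted p 0.080).

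The membrane-bound SEMA6A fell with ASO10. Its summed level was 161, 164 and 165 CPM in NCA, 162, 151 and 148 in ASO2 and 141, 133 and 118 in ASO10. All ASO10 libraries were below the others, by 0.32 ± 0.06 on the log2 scale against NCA (edgeR adjusted p 3.1e-05), while ASO2 overlapped NCA. ASO2 exceeded ASO10 by 0.23 ± 0.06 (edgeR adjusted p 0.0026, and 0.11 without ASO10 replicate 3). Its region chr5:116516686-116517926 measured 8.50, 6.81 and 4.77 CPM in NCA, 6.74, 5.58 and 5.60 in ASO2 and 3.40, 2.62 and 2.21 in ASO10 (-1.27 ± 0.30, edgeR adjusted p 0.006). The call was lost without ASO10 replicate 3 or NCA replicate 1 (highest adjusted p 0.15). The other called region, chr5:116523903-116524680, fell by 0.65 ± 0.17 (edgeR adjusted p 0.023) and was lost without ASO10 replicates 2 or 3 or any NCA replicate (highest adjusted p 0.31). SEMA3F, SEMA4D, SEMA5A and SEMA6D did not pass as sums in any comparison.

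The plexins and neuropilins, which receive the semaphorin signals, gave few calls. No gene of the 9 passed against NCA with either ASO. PLXNA1, PLXNA4 and NRP2 were higher with ASO2 than with ASO10, at 0.25 ± 0.08 (edgeR adjusted p 0.030), 0.17 ± 0.05 (edgeR adjusted p 0.0051) and 0.23 ± 0.06 (edgeR adjusted p 0.0051). NRP2 stood at 129, 130 and 123 CPM in NCA, 133, 123 and 141 in ASO2 and 107, 113 and 120 in ASO10. Its ASO10 libraries were below all others. These 3 calls were each lost under some alternatives. PLXNA1 lost it with total counts, the 5 kb window, and without ASO10 replicates 2 or 3 or ASO2 replicates 1 or 2 (highest adjusted p 0.15). PLXNA4 lost it with total counts, loess offsets and without ASO2 replicate 3 (0.45). NRP2 lost it with the 5 kb window and without ASO10 replicate 1 or ASO2 replicate 3 (0.11).

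Regions within the plexins that passed were weak or close to the threshold. A PLXNA1 region at chr3:127015079-127016351 had 17.5, 18.4 and 18.3 CPM in NCA, 25.5, 27.7 and 23.0 in ASO2 and 20.8, 18.3 and 17.4 in ASO10. ASO2 was above both (0.49 ± 0.15, edgeR adjusted p 0.020), and the call was lost without ASO2 replicates 1 or 2 or any NCA replicate (highest adjusted p 0.14). The PLXNA4 region chr7:132359752-132359916 held 6, 2 and 5 counts in NCA, 23, 17 and 23 in ASO2 and 12, 11 and 6 in ASO10 (edgeR adjusted p 0.036 with ASO2). It was lost without any single ASO2 or NCA library (highest adjusted p 0.21). A region downstream of PLXNA2, chr1:208013310-208013742, fell by 1.14 ± 0.32 with ASO10 (edgeR adjusted p 0.037) and was lost with loess offsets, no filter or without any single ASO10 or NCA library (highest adjusted p 0.33).

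Among the Eph receptors and ephrins, 1 receptor and 1 ligand rose as sums with ASO2. EPHA5, a receptor of A-type ephrins, stood at 76.5, 73.3 and 89.0 CPM in NCA, 110, 106 and 94.6 in ASO2 and 91.1, 81.5 and 90.0 in ASO10. ASO2 lay above NCA and ASO10 overlapped NCA, with 0.37 ± 0.07 for ASO2 (edgeR adjusted p 2.8e-05) and 0.13 ± 0.07 for ASO10 (edgeR adjusted p 0.26). The difference between the ASOs of 0.24 ± 0.07 (edgeR adjusted p 0.012) was lost with total counts and without ASO10 replicate 2 or ASO2 replicates 1 or 2 (highest adjusted p 0.13). A region in EPHA5 at chr4:65391553-65393402 rose by 0.62 ± 0.15 with ASO2 (edgeR adjusted p 0.001), and its ASO10 difference was 0.48 ± 0.15 (edgeR adjusted p 0.074).

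EFNA5, an A-type ephrin, stood at 119, 116 and 123 CPM in NCA, 127, 142 and 153 in ASO2 and 128, 124 and 138 in ASO10. Both ASO groups lay above NCA, and only ASO2 passed (0.24 ± 0.06, edgeR adjusted p 0.003, and 0.092 without ASO2 replicate 3). Its regions did not share a direction between the ASOs: chr5:107470089-107470533 was higher with ASO2 by 1.18 ± 0.32 (edgeR adjusted p 0.014) and chr5:107515715-107516057 lower by 1.56 ± 0.49 (edgeR adjusted p 0.043). The first was lost without ASO10 replicates 1 or 2 or ASO2 replicate 3 (highest adjusted p 0.15). The second was lost with DESeq2, no filter, and leaving out NCA replicate 1, any ASO2 replicate or ASO10 replicates 1 or 3 (highest adjusted p 0.27).

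EFNB2, a B-type ephrin, differed inside the gene and little at its start. Its start region, the sequence of which is printed above, averaged 49.3 CPM in NCA, 47.9 in ASO2 and 49.4 in ASO10. About 6 kb inside the gene, chr13:106529467-106529851 measured 1.93, 2.52 and 3.18 CPM in NCA, 6.46, 7.08 and 6.06 in ASO2 and 1.99, 1.02 and 2.47 in ASO10. Only ASO2 was high there, by 1.35 ± 0.34 over NCA (edgeR adjusted p 0.0034) and 1.84 ± 0.36 over ASO10 (edgeR adjusted p 8.5e-05). The sum over EFNB2 was higher with ASO2 than with ASO10 by 0.24 ± 0.06 (edgeR adjusted p 0.0013).

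EPHB3 had the only gene-start region that passed with ASO10. The region, chr3:184561155-184562203, covers the whole printed stretch and measured 33.5, 36.9 and 39.1 CPM in NCA, 46.3, 45.6 and 44.9 in ASO2 and 53.0, 51.4 and 47.5 in ASO10. Both ASO groups lay above NCA, at 0.47 ± 0.12 with ASO10 (edgeR adjusted p 0.015) and 0.32 ± 0.12 with ASO2 (edgeR adjusted p 0.099). The ASO10 call was lost with loess offsets and without any ASO10 replicate or NCA replicates 1 or 2 (highest adjusted p 0.20). Summed over the gene, EPHB3 did not pass (0.08 with ASO10, edgeR adjusted p 0.52).

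In the netrin group, the attractive receptor DCC and the repulsive receptor UNC5C rose with ASO2. DCC had only 7 regions and stood at 22.9, 19.2 and 21.4 CPM in NCA, 28.5, 27.9 and 30.6 in ASO2 and 22.9, 23.1 and 21.6 in ASO10. ASO2 lay above both other groups (0.45 ± 0.13, edgeR adjusted p 0.014), and the call was lost without ASO2 replicate 3 or NCA replicate 2 (highest adjusted p 0.095). Within DCC, chr18:53196933-53197155 held 1, 1 and 5 counts in NCA, 19, 21 and 17 in ASO2 and 10, 12 and 7 in ASO10 (edgeR adjusted p 0.0091 with ASO2). That call was lost without ASO2 replicates 1 or 2 or NCA replicates 1 or 2 (highest adjusted p 0.061).

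UNC5C stood at 180, 183 and 184 CPM in NCA, 203, 203 and 201 in ASO2 and 196, 179 and 186 in ASO10. The difference with ASO2 was small (0.15 ± 0.05, edgeR adjusted p 0.040) and was lost with total counts, loess offsets, fitting only the 2 groups and leaving out any ASO2 or NCA library (highest adjusted p 0.61). An UNC5C region at chr4:95340199-95340528 held 6, 1 and 7 counts in NCA, 13, 22 and 35 in ASO2 and 16, 11 and 20 in ASO10 (edgeR adjusted p 0.015 with ASO2, and at most 0.16 without ASO2 replicate 3 or NCA replicate 2). A region of UNC5B at chr10:71266208-71266877 was lower with ASO2 than with ASO10 by 0.62 ± 0.20 (edgeR adjusted p 0.047) and was lost with DESeq2, total counts or no filter and without any ASO2 replicate or ASO10 replicates 1 or 3 (highest adjusted p 0.25). The netrin ligands had little signal: NTN1 had 1 region, and NTN4 averaged 13.1 CPM in NCA without passing.

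Many of these genes are very long. Among regions of other protein-coding genes of 200 kb or more, 8.03% passed with ASO2, 1.13% with ASO10 and 4.04% between the ASOs, between the shares of all tested regions and the 10.8%, 1.46% and 5.11% of the members' regions. Across the 40 genes, length and log2 fold change had a Spearman rho of 0.30 with ASO2, 0.09 with ASO10 and 0.44 between the ASOs. Across all 18793 genes the values were 0.13, -0.09 and 0.23. Genes share libraries and neighbouring chromatin and are not independent, so these are descriptions.

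Around most genes that rose with ASO2, the surrounding regions were also higher in their median. Of the regions within 1 Mb of any member and outside its window, 6.12% passed with ASO2, beside 5.6% of all tested regions. With ASO10 1.79% passed, beside 1.09% of all, and between the ASOs 3.04%, beside 3.23%. Tested regions higher with ASO2 were 15 of 62 around ROBO1, 21 of 103 around SEMA3C and 8 of 31 around EPHA5. They were 9 of 59 around SEMA3E, 9 of 57 around SEMA3A and 7 of 50 around SEMA3D. Around EFNA5 they were 6 of 29, around UNC5C 4 of 39 with 1 lower, around ROBO2 6 of 76 and around DCC 2 of 13. Tested regions within 1 Mb of a gene and outside all member windows had a median log2 fold change with ASO2 of 0.40 around ROBO1, 0.44 around SEMA3A, 0.46 around SEMA3C, 0.46 around SEMA3E, 0.35 around SEMA3D, 0.53 around EPHA5, 0.34 around EFNA5 and 0.31 around UNC5C. Around ROBO2 and DCC it was -0.06 and 0.06. The median of these values was 0.38 for the 10 genes called with ASO2, 9 of them positive, and -0.02 for the other 30, 14 of them positive. EPHA7, which was not called, had a value of 0.62. SEMA3E, SEMA3A and SEMA3D lie near each other on chromosome 7 and share part of their surroundings, and so do ROBO2 and ROBO1, which share the gap between them. This comparison was set up after the values were seen. The part that gene length and surroundings have in the members' results was not tested.

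**Figure D5:**
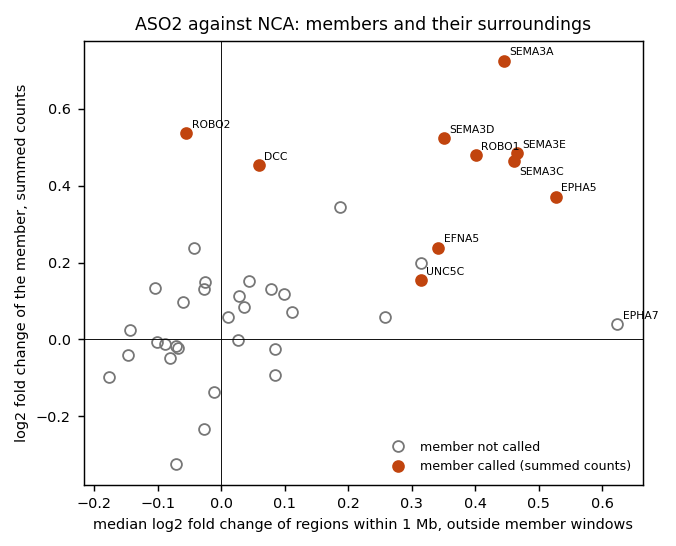
Each point is a member gene, with the median log2 fold change (ASO2 against NCA) of regions within 1 Mb but outside member windows on the horizontal axis and the gene's own log2 fold change on the vertical axis, filled where the gene passed. Filled points lie to the right of 0 except ROBO2, at -0.06, and EPHA7 is an open point at 0.62.

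Related genes were taken from fixed lists. Of 38 other members of the same families, 2 rose and 0 fell with ASO2 (5.26%), 1 rose and 3 fell with ASO10 (10.5%), and 4 were higher and 1 lower between the ASOs (13.2%). Over all genes the shares were 7.31%, 8.36% and 9.66%, so the share with ASO2 was below that of all genes. NTNG1, a membrane-anchored netrin, rose with ASO2 by 0.41 ± 0.05 (edgeR adjusted p 2.6e-11), and EPHA6 by 0.33 ± 0.05 (edgeR adjusted p 7.9e-10). EFNA2 rose with ASO10 by 0.43 ± 0.08 (edgeR adjusted p 0.00013). ROBO3 and ROBO4, adjacent genes that share regions, fell with ASO10 by 0.47 ± 0.10 and 0.50 ± 0.10 (edgeR adjusted p 0.00047 and 0.00035).

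Of 51 genes of the intracellular pathway, 8 rose and 1 fell with ASO2 (17.6%), 2 rose and 2 fell with ASO10 (7.84%), and 6 were higher and 1 lower between the ASOs (13.7%), beside the same 7.31%, 8.36% and 9.66%. The share with ASO10 was thus below that of all genes. SRGAP1 and SRGAP2, GTPase-activating proteins that bind ROBO receptors, rose with ASO2 by 0.26 ± 0.05 and 0.21 ± 0.04 (edgeR adjusted p 1.5e-05 and 0.00026). FES, a tyrosine kinase linked to semaphorin signalling, fell by 0.26 ± 0.09 (edgeR adjusted p 0.047). With ASO10, the adaptor NCK1 rose by 0.26 ± 0.08 (edgeR adjusted p 0.034) and SRGAP2 by 0.13 ± 0.04 (edgeR adjusted p 0.037), while TRIO, a guanine nucleotide exchange factor, fell by 0.17 ± 0.04 (edgeR adjusted p 0.0078) and EVL fell by 0.20 ± 0.06 (edgeR adjusted p 0.026). VAV3 and NRCAM were higher with ASO2 than with ASO10, by 0.34 ± 0.07 and 0.24 ± 0.05 (edgeR adjusted p 4.5e-05 and 7e-05), and CFL1, an actin-severing protein, was lower by 0.22 ± 0.06 (edgeR adjusted p 0.015).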

How the data were processed

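ATAC-seq was measured in 9 libraries, 3 per group, grouped by their labelled treatment. The authors deposited whole-number counts for a single set of 148797 regions shared by all libraries. Per the submitters' processing notes, FastQC, Bowtie2 2.2.6, SAMtools, MACS2 2.1.2 and DESeq2 1.42.0 were used with hg38/GRCh38. Their settings, the Tn5 shift and what was counted are not given in the sources used here. Gene spans came from a RefSeq table and strands from its promoter table. Whether a region is exonic or intronic was not analysed here.

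The filter was filterByExpr and the scaling TMM. Tests used edgeR 4.0.16 (R 4.3.3; robust quasi-likelihood fit of all 9 libraries on group) and adjusted by Benjamini-Hochberg over all tested features at 0.05. The procedure was tested on simulated counts with as many features raised as lowered. That setting does not test a split of calls that is mostly higher, as with ASO2. CPM use TMM-scaled totals. The SE after each ± was derived from the log2 fold change and the F statistic of its quasi-likelihood test. It was not estimated directly by the fit and is approximate for regions with few counts. Within groups, pairs of libraries gave chi-square values of 2.93 to 3.66 per degree of freedom, so none was a copy. Named regions were the strongest gene-end region of each gene and, per family and comparison, the 2 called regions with the smallest p in each direction, with every gene called from summed counts. From the related lists, the 2 called genes with the smallest p in each direction were named. A planned cell type marker is not reported here. The genes, lists and tests were chosen with earlier results of these data known. Alternatives were DESeq2 1.42.0, total counts, loess offsets (span 0.3), a replicate block, no filter, a minimum of 10 counts per library, a fit of the 2 compared groups alone, a 5 kb window, a 500-base gene end and leaving out each library.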

Additional observations from a re-analysis of the deposited data

Results flagged for a closer look

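ASO2 and ASO10 differed from each other, by the direct edgeR comparison of the 2 groups, at 35 of the members' regions (5.11%, beside 3.23% of all tested regions) and in 11 member genes by summed counts (27.5%, beside 9.66% of all genes). The log2 fold changes of ASO2 against ASO10 were 0.57 for SEMA3A, 0.43 for ROBO1, 0.36 for ROBO2, 0.33 for SEMA3E, 0.27 for SEMA3D, 0.25 for PLXNA1, 0.24 for EPHA5, 0.24 for EFNB2, 0.23 for NRP2, 0.23 for SEMA6A and 0.17 for PLXNA4. All 11 were higher with ASO2 than with ASO10. SEMA6A was lower with ASO10 than in NCA and did not rise with ASO2, and the ASO10 libraries of NRP2 were below all others. The calls of PLXNA1, EPHA5, NRP2, PLXNA4 and SEMA6A between the ASOs were each lost under some alternatives.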

How the results depend on the processing

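Over 88 results and 1451 pairs of a result and an alternative, 1245 kept their direction and call or stayed within a set range. In 95 pairs a count or median moved, 111 single calls were lost and 0 were reversed. The range was a fixed ratio to the main count or, for medians, the pooled SD between replicates. Pairs whose feature was absent from the alternative fit or had no adjusted p were left out and not counted as lost. Counts of member genes ran, leaving out 1 library at a time, from 8 to 10 with ASO2, 3 to 5 with ASO10 and 9 to 12 between the ASOs. Replicate numbers did not pair the libraries: same-number correlations of deviations ran from -0.04 to 0.01. A replicate block gave 71, 10 and 31 regions and 9, 4 and 11 genes in the 3 comparisons. Under that block the Eph and ephrin count between the ASOs was 2 and the netrin count 0, and the calls of UNC5C with ASO2 and of the UNC5B region and the lower EFNA5 region between the ASOs were lost.

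With ASO2, the netrin count was 1 with DESeq2 and 2 with loess offsets, and the median away from gene ends was 0.12 with total counts, 0.12 with no filter and 0.10 with at least 10 counts. Leaving out 1 library gave 46 to 73 regions, plexins 0 to 3, Ephs 2 to 6, netrins 1 to 5, SLIT and ROBO 25 to 41, a gene-end median of -0.017 to 0.14 and an away median of 0.11 to 0.14.

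With ASO10, the plexin count was 0 with DESeq2, loess offsets, no filter and the 5 kb window. The Eph count was 0 with loess offsets and 2 with at least 10 counts. The gene-end median was 0.093 with loess offsets, and the away median -0.018 with total counts and 0.039 with loess offsets. Leaving out 1 library gave 4 to 11 regions, semaphorins 1 to 4, plexins 0 to 1, Ephs 0 to 1, SLIT and ROBO 3 to 6, a gene-end median of 0.10 to 0.15 and an away median of -0.011 to 0.037.

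Between ASO2 and ASO10, the plexin count was 1 with loess offsets and 2 with at least 10 counts. The Eph count was 2 with DESeq2 and no filter and 1 with at least 10 counts. The netrin count was 0 with DESeq2, total counts and no filter, 2 with loess offsets and at least 10 counts, and 3 with only the 2 groups. The away median was 0.102 with loess offsets, 0.105 with no filter and 0.101 with at least 10 counts. Leaving out 1 library gave 19 to 37 regions, semaphorins 4 to 9, plexins 0 to 1, Ephs 1 to 4, netrins 0 to 2, SLIT and ROBO 11 to 23, a gene-end median of -0.16 to -0.034 and an away median of 0.10 to 0.17. The cause of these shifts was not tested. Weak regions have few counts: a median member region had about 3 CPM, and 135 were not tested. Whether depth bears on these shifts was not tested.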
